A study of Drosophila melanogaster with 2 samples.

Results

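The cytoplasmic ribosomal protein genes RpL5, RpL15, RpL38 and RpS3A, which lie in Drosophila heterochromatin, were examined for binding of the chromatin protein Su(var)2-HP2. They were taken by name, and every summit inside each gene or within 5 kb of it was read from the deposited peak lists. The 4 genes are among 88 cytoplasmic ribosomal protein genes and 13968 protein-coding genes in the annotation. The windows around them held 22 of the 2006 summits in the list thresholded on reproducibility between replicates (irreproducible discovery rate, IDR). The material was whole embryos of Drosophila melanogaster aged 0 to 10 h from a transgenic line in which GFP is joined to the C terminus of Su(var)2-HP2. Chromatin was sonicated to 200 to 800 bp, immunoprecipitated with an anti-GFP antibody and sequenced (ChIP-seq). There was 1 group of 2 biological replicates, numbered 4 and 6, both from that line. The promoter that drives the tagged protein is not given in the sources used here, and embryos without the tag are not analysed here. In whole embryos, strong binding in few cells and weak binding in many cannot be told apart.

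Heterochromatin is the compact, repeat-rich chromatin around centromeres and on the small chromosome 4 of Drosophila, and it carries the protein HP1. Su(var)2-HP2 binds HP1, and mutations in its gene weaken the silencing of genes placed in heterochromatin. Some essential genes nevertheless reside in heterochromatin and are expressed there. Ribosomal protein genes are transcribed at high rates in nearly all cells, and heterozygous loss of many of them gives the Minute phenotype of short bristles and slow development. RpL5 carries 5S ribosomal RNA into the large ribosomal subunit, RpL15 and RpL38 are other proteins of the large subunit, and RpS3A is a protein of the small subunit.

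The DNA just upstream of 3 of the 4 genes is shown first, since the strongest binding lay at these start sites. Each run gives the 250 bases before the outermost annotated start, written 5′ to 3′ on the strand of the gene, from the RefSeq sequence of the dm6 chromosomes. The RpL5 run is 2L:22536885-22537134 on the minus strand, the RpL15 run is 3L:27267005-27267254 on the plus strand, and the RpS3A run is 4:67208-67457 on the minus strand. Capitals mark CGATA or its reverse complement TATCG, the core of the DNA replication-related element, and TATAAA, the letters of the TATA box.
RpL5: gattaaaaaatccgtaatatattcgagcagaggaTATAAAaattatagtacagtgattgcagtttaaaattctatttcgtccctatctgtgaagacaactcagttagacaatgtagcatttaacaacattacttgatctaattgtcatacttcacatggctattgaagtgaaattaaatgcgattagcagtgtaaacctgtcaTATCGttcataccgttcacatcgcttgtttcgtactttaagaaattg
RpL15: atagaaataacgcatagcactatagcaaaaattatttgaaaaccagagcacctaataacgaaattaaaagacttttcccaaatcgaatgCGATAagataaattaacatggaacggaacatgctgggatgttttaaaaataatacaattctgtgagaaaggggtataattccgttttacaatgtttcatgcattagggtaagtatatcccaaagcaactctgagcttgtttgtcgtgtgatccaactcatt
RpS3A: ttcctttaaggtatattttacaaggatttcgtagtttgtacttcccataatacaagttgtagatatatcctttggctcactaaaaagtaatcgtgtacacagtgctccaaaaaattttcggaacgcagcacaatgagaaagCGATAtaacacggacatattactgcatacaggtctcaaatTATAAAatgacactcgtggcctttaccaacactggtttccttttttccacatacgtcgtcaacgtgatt

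The pooled summit of RpL15 lay at base 130 of its run, counted from the 5′ end, and that of RpS3A at base 70. The pooled summit of RpL5 lay outside its run, 54 bp inside the outermost start. The CGATA core was present in 3 of these 3 runs, at 47 bp (RpL5), 161 bp (RpL15) and 109 bp (RpS3A) upstream of the start. In runs of the same length it was found at 70.7% of the 82 ribosomal protein genes on the chromosome arms and at 42.5% of all protein-coding genes. TATAAA was found 216 bp upstream at RpL5 and 69 bp upstream at RpS3A, against 46.3% of arm ribosomal protein genes and 43.0% of all genes. It was matched by its letters alone, at any position in the run, so a match need not be a working TATA box. CTTT, the core of the pyrimidine-rich initiator typical of ribosomal protein genes, was read on the strand of the gene within 10 bp of a start site. It was found at 3 of 3 genes, at 82.9% of arm ribosomal protein genes and at 14.9% of all genes.

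The other 7 motifs were searched on both strands and were in 0 of the 3 runs. The full replication-related element TATCGATA, which overlaps the CGATA core, was in 26.8% of arm ribosomal protein gene runs and 7.99% of all runs. GGTCACAC (Motif 1 core) was in 12.2% of the arm runs and 4.2% of all, and GAGAGAG (the GAGA element) in 0% and 5.36%. The E-box CACGTG was in 3.66% of the arm runs and 2.86% of all, and the E-box CAGCTG in 6.10% and 13.4%. GGTATTT (Motif 6 core) was in 18 of the 82 arm runs and 8.86% of all, and GGCAACGC (Motif 7 core) in 6.10% and 2.13%. A run without a motif says only that these letters are not in these 250 bases. Motifs of RpL38 are not analysed here.

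The genes differed in structure and surroundings. RpL5 (FBgn0064225) lies at 2L:22532279-22536884 on the minus strand, is 4606 bp long and has 3 annotated start sites, at 22536650, 22536687 and 22536884. RpL15 (FBgn0028697) lies at 3L:27267255-27268445 on the plus strand, is 1191 bp long and has 8 transcripts from start sites at 27267255 and 27267256. RpL38 (FBgn0040007) lies at 2R:4515388-4516458 on the minus strand, is 1071 bp long and has 1 start site. RpS3A (FBgn0017545) lies at 4:65225-67207 on the minus strand, is 1983 bp long and has 1 start site. RpL5, RpL15 and RpS3A host small nucleolar RNAs within their bounds, as do 26 of the 82 arm ribosomal protein genes. Annotated transposable elements covered 38.9% of the gene and 5 kb on each side at RpL38 (7 elements) and 5.67% at RpS3A (5 elements), with 0 elements at RpL5 and RpL15. Soft-masked repeats made up 16.9% of that window at RpL5, 27.2% at RpL15, 24.6% at RpL38 and 28.8% at RpS3A.

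All 4 genes carried a strong summit at the start site in each list. An IDR summit lay within 500 bp of an annotated start at 4 of 4 genes. The background was 8.84% of all protein-coding genes, 50.9% of the 273 protein-coding genes in pericentromeric DNA and on chromosome 4, and 37.8% of arm ribosomal protein genes. Among the 2006 strongest summits of each replicate's own list the count was also 4 of 4, against 8.46% of all protein-coding genes in replicate 4 and 8.74% in replicate 6. The share among heterochromatic genes as a class was thus also high.

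The signal value of a peak is the authors' score on an unstated scale. It ranks peaks within a list, and each replicate value was divided by the median value of that replicate's own top 2006 peaks, which gives the relative signal. RpL5 had a pooled summit at 22536830 with a signal value of 4446, rank 4 of 30000. Its relative signal was 17.6 in replicate 4 (rank 6) and 25.8 in replicate 6 (rank 2), a mean of 21.7 ± 5.76 (SD, n = 2). The summit fell in the 5′ UTR exon of the transcript with the outermost start and 143 and 180 bp upstream of the other start sites.

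RpS3A had its pooled summit at 67388, 181 bp upstream of the start, with a signal value of 3496 and rank 14. Relative signal there was 15.6 in replicate 4 (rank 13) and 17.9 in replicate 6 (rank 16), a mean of 16.7 ± 1.63 (SD, n = 2). RpL15 had its summit at 27267134, 121 bp upstream of the first start, with a signal value of 3250 and rank 23. Its relative signal was 14.3 in replicate 4 and 16.6 in replicate 6, rank 23 in each list, with a mean of 15.4 ± 1.57 (SD, n = 2). RpL38 had its summit at 4516583, 125 bp upstream of the start, with a signal value of 2409 and rank 63. Its relative signal was 10.4 in replicate 4 (rank 68) and 12.7 in replicate 6 (rank 61), a mean of 11.6 ± 1.62 (SD, n = 2).

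The order RpL5, RpS3A, RpL15, RpL38 was the same in both replicates. For RpL5, RpS3A and RpL15 the values were 17.6, 15.6 and 14.3 in replicate 4, and 25.8, 17.9 and 16.6 in replicate 6. The ranges of RpL5 and RpS3A overlapped only between replicates, as did those of RpS3A and RpL15. Whether these neighbours in the order differ was not tested. Both values of RpL38 lay below every value of the other 3 genes. Summits of the replicates lay 39 bp apart at RpL5, 30 bp at RpS3A, 63 bp at RpL15 and 34 bp at RpL38. Relative signal was higher in replicate 6 at 4 of 4 genes, also when scaled to the median of all peaks or of arm ribosomal protein genes. The undivided signal value was higher in replicate 6 at 1 of 4, RpL5, with 2323 in replicate 6 and 2232 in replicate 4.

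**Figure D1:**
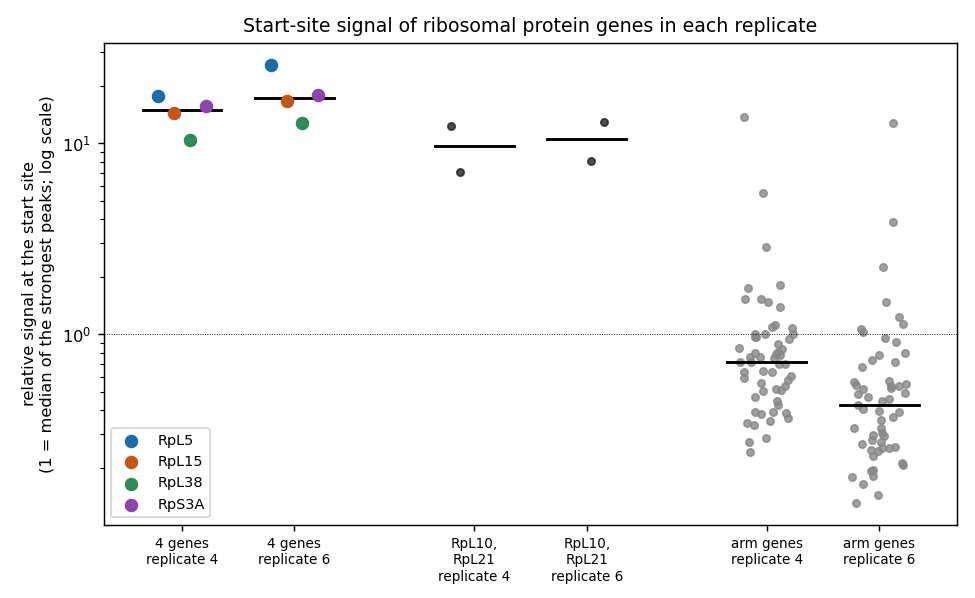
Relative signal of the strongest start-site summit in replicates 4 and 6 (log scale; 1 is the median of the 2006 strongest peaks of that list) for the 4 genes, for RpL10 and RpL21 and for 57 arm ribosomal protein genes with a value in both replicates; each point is a gene and each bar a median. The 4 genes lie between 10.4 and 25.8, and the arm genes have medians of 0.716 in replicate 4 and 0.429 in replicate 6.

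Among the 5299 protein-coding genes with a pooled summit within 500 bp of a start, RpL5 ranked 4, RpS3A 14, RpL15 22 and RpL38 65. Among the 229 of these in pericentromeric DNA or on chromosome 4, their ranks were 4, 14, 22 and 52. Every gene ranked above RpL5, RpS3A or RpL15 thus lay in those regions, so high ranks were not particular to the ribosomal protein genes. RpL5 was the highest protein-coding gene of 2L. The genes closest to each in this ranking were all pericentromeric or on chromosome 4. RpL5 stood between CG40191 (21.1 ± 2.44) and the translational regulator gene Gyf (20.7 ± 2.51), given as mean relative signal ± SD of n = 2 replicates. RpS3A stood between CG33217 (17.7 ± 3.15) and CG17683 (16.2 ± 1.51). RpL15 stood between Arl4, an Arf-like GTPase gene (15.4 ± 1.84), and CG17528 (15.2 ± 0.0177). RpL38 stood between Nipped-B, which encodes the cohesin loader (11.4 ± 0.0895), and Slmap (11.2 ± 0.953). Each of these genes differed from its ribosomal protein gene by less than the larger replicate SD. They were picked as the closest in pooled signal, so small differences follow from that choice and are not a result.

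The ribosomal protein genes on the arms gave much lower values. Of 82 such genes, 65 had a pooled summit within 500 bp of a start, 57 had a value in both replicates and 31 had an IDR summit. The median of mean relative signal was 16.1 for the 4 genes (range 11.6 to 21.7) and 0.555 for the 57 arm genes (range 0.240 to 13.2). On the log2 scale the medians were 4.00 and -0.92, a difference of 4.92, which was 4.38 in replicate 4 and 5.33 in replicate 6. Relative signal was higher in replicate 6 at 4 of the 4 genes and at 6 of the 57 arm genes.

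The strongest arm genes overlapped the range of the 4 genes only through RpS27A, whose protein is made as a fusion with ubiquitin. RpS27A had a relative signal of 13.7 in replicate 4 and 12.7 in replicate 6, a mean of 13.2 ± 0.674 (SD, n = 2), above RpL38 and below the other 3 genes. In replicate 6 its value and that of RpL38 were both 12.7. A start site of the neighbouring gene Ip259 also lay within 500 bp of that summit. RpL12, which encodes a protein of the large subunit, followed with 4.67 ± 1.15, and RpL39, for another large-subunit protein, with 2.56 ± 0.416 (SD, n = 2 each). RpL10 on 3L and RpL21 on 2L, ribosomal protein genes that also fall within the pericentromeric borders used, had 12.6 ± 0.460 and 7.59 ± 0.721 (SD, n = 2 each). The 211 other pericentromeric and chromosome 4 genes with values in both replicates had a median of 3.67 (range 0.103 to 26.6), and 142 of them were higher in replicate 6. Among the 134 of these with an IDR start-site summit the median was 9.36.

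The called intervals at the 4 start sites spanned 3605 bp at RpL5, 2480 bp at RpS3A, 3858 bp at RpL15 and 3243 bp at RpL38 in the pooled list. At the 65 arm ribosomal protein genes the intervals ran from 117 to 2232 bp, with a median of 430 bp, and 2 of them exceeded 1000 bp. A width of 430 bp is the most common in the pooled list, given to 27228 of 30000 peaks and to 38 of those 65 arm genes. Among the 31 arm genes with an IDR summit the median was 239 bp. Widths like those of the 4 genes were found at RpL10 (3311 bp) and RpL21 (3428 bp). The 135 other pericentromeric and chromosome 4 genes with an IDR start-site summit had a median of 2238 bp and a highest width of 7323 bp. The intervals were narrower in each replicate, 3079 and 2481 bp at RpL5, 2448 and 1883 bp at RpS3A, 2455 and 2282 bp at RpL15, and 2686 and 2357 bp at RpL38 in replicates 4 and 6.

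**Figure D2:**
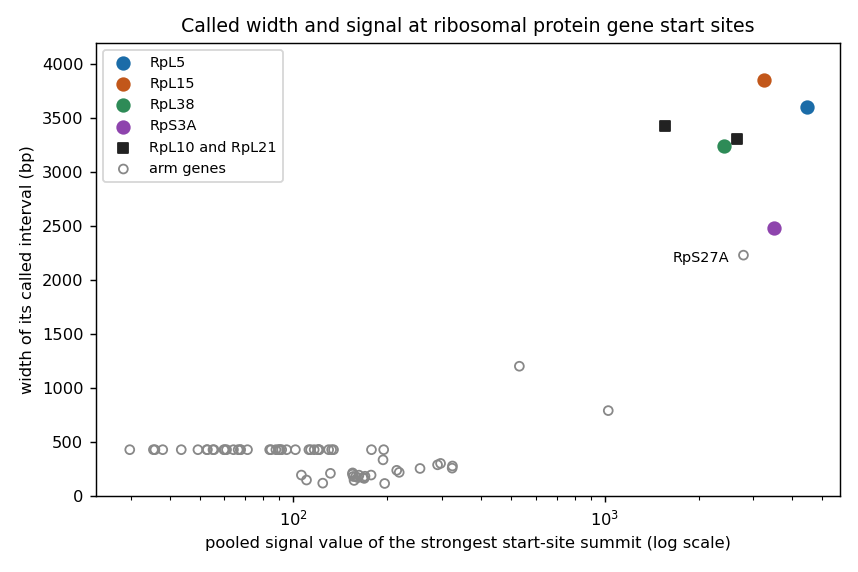
Width of the called interval (bp) against the pooled signal value (log scale) of the strongest start-site summit, for the 4 genes, for RpL10 and RpL21 (squares) and for 65 arm ribosomal protein genes (open circles). The 4 genes lie between 2480 and 3858 bp, RpS27A at 2232 bp is the widest arm gene, and the flat row of circles lies at 430 bp.

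These intervals reached farther upstream of the outermost start than into the gene at 4 of 4 genes, in the IDR list and in both replicates. In the IDR list they reached 2485 bp upstream and 1119 bp into the gene at RpL5. That upstream reach ran over the 5′ end of the neighbouring gene CG17490 and included the summit at 22538175 near a CG17490 start. The values were 1876 and 603 bp at RpS3A, 2980 and 877 bp at RpL15, and 2748 and 494 bp at RpL38. In replicate 4 the upstream reach was 1623 to 2361 bp and the reach into the gene 491 to 831 bp. In replicate 6 these were 1586 to 2127 bp and 229 to 590 bp. At the 31 arm ribosomal protein genes with an IDR summit, the interval reached farther upstream at 23. Among arm genes with one of the strongest summits this held at 24 of 39 in replicate 4 and at 13 of 15 in replicate 6. RpL10 and RpL21 had the same form in the IDR list, with 2620 bp upstream and 690 bp into the gene at RpL10, and 2616 and 811 bp at RpL21. Interval reach was not computed for genes outside the ribosomal protein set. The IDR start-site summit itself lay upstream of the gene's nearest start at 1139 of the 1235 protein-coding genes with such a summit. This held at 120 of the 135 other pericentromeric and chromosome 4 genes and at 3 of the 4 genes, so upstream placement was common.

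IDR intervals covered 24.7% of the gene and its 5 kb flanks at RpL5, 42.8% at RpS3A, 43.8% at RpL15 and 48.6% at RpL38. The median of the 4 was 43.3%, and that of the 82 arm ribosomal protein genes was 1.17% (range 0 to 33.7). With the strongest summits of each replicate the median of the 4 was 30.8% in replicate 4 and 28.2% in replicate 6, against 1.30% and 0% for the arm genes. RpL10 (38.7%) and RpL21 (31.8%), also pericentromeric, had an IDR cover between those of RpL5 and RpS3A.

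The windows differed in how many summits they held. At least 1 IDR summit lay in the gene or within 5 kb at 4 of 4 genes, against 22.3% of all protein-coding genes, 64.1% of pericentromeric and chromosome 4 genes and 51.2% of arm ribosomal protein genes. The IDR counts were 2 at RpL5, 7 at RpL15, 5 at RpL38 and 8 at RpS3A, a median of 6. The median was 1 for arm ribosomal protein genes (range 0 to 4) and 2 for the 269 other pericentromeric and chromosome 4 genes (range 0 to 12). Of those 269, as many summits or more were found at 140 for RpL5, 16 for RpL15, 62 for RpL38 and 9 for RpS3A. The other heterochromatic genes are longer, with a median of 7156 bp against 1587 bp for the 4 genes and 1344.5 bp for arm ribosomal protein genes, so their windows were larger.

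The pooled list held 72 summits in the 4 windows, 59 of them with a q-value under 0.05, against 41.3% of all 30000 pooled peaks. The lists of replicates 4 and 6 held 73 each. Among the 2006 strongest, replicate 4 had 21 and replicate 6 had 23. Pooled signal values in the windows ran from 22.2 to 4446 with a median of 67.1, so most summits were weak, and the lowest signal in the IDR list was 121. The 22 IDR summits lay in 12 called intervals, with 14 summits upstream, 3 inside the gene and 5 downstream. Of the 22, 14 were farther than 500 bp from any annotated start, 0 at RpL5, 6 at RpL15, 3 at RpL38 and 5 at RpS3A. The same shares over all 2006 IDR summits are not given here, so these placements are descriptions of the 4 windows. A single start-site summit held 63.1% of the summed pooled signal values in the RpL5 window, 59.9% at RpL15, 48.1% at RpL38 and 43.6% at RpS3A. In the same order the shares were 48.2%, 62.3%, 45.8% and 42.4% in replicate 4, and 62.3%, 52.6%, 48.8% and 41.2% in replicate 6. RpL5 and RpL15 thus changed places between replicates. These shares add scores of unstated scale and depend on how peaks were split into summits.

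**Figure D3:**
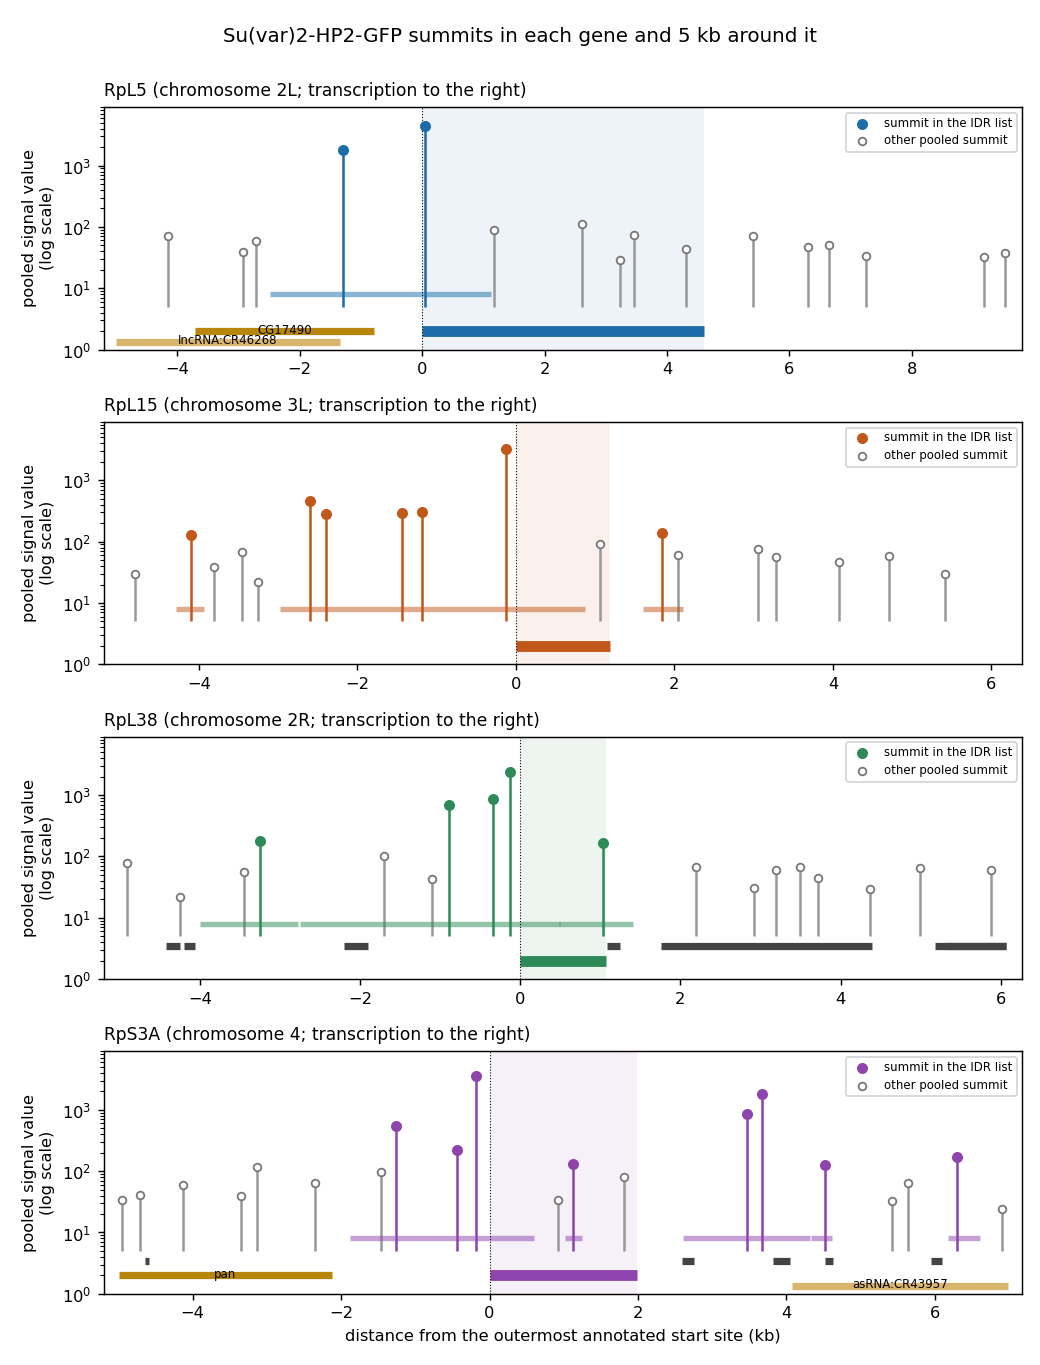
Pooled summits in each gene and 5 kb around it, by distance from the outermost annotated start (kb; transcription runs to the right) and signal value (log scale). Filled points are IDR summits and open points other pooled summits; shading and the thick bar mark the gene, pale bars at the foot of the stems the called IDR intervals, gold bars neighbouring genes and black bars transposable elements. The highest summit lies at the start in each gene, with signal values of 4446, 3250, 2409 and 3496 from top to bottom.

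Outside the start sites each locus had its own pattern. At RpL5 the other IDR summit lay at 22538175 with a signal value of 1808, rank 96. It was in a 5′ UTR exon of CG17490, 55 bp from a start site shared by CG17490 and lncRNA:CR46268, both transcribed away from RpL5. Its relative signal was 7.61 in replicate 4 and 9.61 in replicate 6 (8.61 ± 1.41, SD, n = 2). It shared a called interval with the RpL5 start-site summit, whose signal was 2.46 times as high. The RpL5 body held 5 further pooled summits, none of them in the IDR list, the strongest with a signal value of 113. Each replicate also placed a summit in the upstream run printed above, at base 137 in replicate 4 (relative signal 6.38) and at base 56 in replicate 6 (0.830).

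At RpL15, 6 of the 7 IDR summits lay upstream of the start. Beside the start-site summit, 4 were in the same interval, at 27264656, 27264858, 27265815 and 27266069, between 1186 and 2599 bp upstream, with signal values of 456, 286, 291 and 304. The start-site summit was 7.13 times as high as the strongest of these, the widest gap of the 4 genes. The summit at 27264656 had no matching summit within 100 bp in replicate 4 and a relative signal of 3.16 in replicate 6. The other 2 IDR summits, at 27263160 and 27269096, had signal values of 128 and 136. No other gene than the 2 small nucleolar RNAs in RpL15 lay in this window.

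At RpL38 the start-site summit was followed by summits 339 and 889 bp upstream, at 4516797 and 4517347, with signal values of 856 and 684. Their relative signals were 4.04 ± 0.279 and 3.25 ± 0.472 (SD, n = 2 each). Weaker IDR summits lay at 4515425 inside the gene, 1033 bp from its start, with a signal value of 164, and at 4519701 upstream with 178. The window held no gene other than RpL38 itself and transposable elements. The summit inside the gene lay 52 bp from the nearest edge of an INE-1 element, which its called interval spanned. At transib2, an element 685 bp from the gene, pooled summits within the element had signal values of 29.7 to 67.3, and none was in the IDR list.

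At RpS3A a second strong site lay downstream of the gene, at 63536, 3671 bp from the start of RpS3A. Its signal value was 1796, rank 97, and its relative signal was 8.14 in replicate 4 and 8.52 in replicate 6 (8.33 ± 0.268, SD, n = 2). It lay between genes, 2109 bp from the nearest annotated start, that of snoRNA:CD-24, and 156 bp from a Cr1a element. A summit at 63735 in the same interval had a signal value of 848. Upstream of RpS3A, summits lay at 67649 (220) and 68465 (549), the second with a relative signal of 3.69 in replicate 4 and 1.94 in replicate 6. The summit at 68465 lay between RpS3A and pan, 1258 bp from the RpS3A start and 861 bp from the nearest pan start. The summit at 67649 had no match in replicate 4 and a relative signal of 7.03 in replicate 6. The 3 weakest IDR summits, at 60912 and 62684 downstream and at 66084 inside the gene, had signal values of 124 to 167. The summit at 62684 fell on the edge of an INE-1 element.

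The DNA at the strongest IDR summit away from start sites is shown for RpS3A and, for comparison, for RpL15, the summit and 100 bases on each side, on the plus strand. The RpS3A run is 4:63436-63636 and the RpL15 run is 3L:27264556-27264756, from the same RefSeq sequence. Neither overlaps an annotated feature. Capitals mark CGATA or TATCG, the full element TATCGATA, and TATAAA or its reverse complement TTTATA. The pooled summit is base 101 of each run.
RpS3A downstream: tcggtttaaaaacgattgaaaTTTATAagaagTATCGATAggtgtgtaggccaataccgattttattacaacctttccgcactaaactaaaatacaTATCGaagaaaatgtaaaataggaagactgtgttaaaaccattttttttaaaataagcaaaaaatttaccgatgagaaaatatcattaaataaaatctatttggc
RpL15 upstream: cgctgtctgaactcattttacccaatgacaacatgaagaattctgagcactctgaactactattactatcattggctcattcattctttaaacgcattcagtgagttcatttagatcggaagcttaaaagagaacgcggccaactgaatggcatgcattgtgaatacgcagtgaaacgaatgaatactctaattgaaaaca

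The RpS3A run held the full element at base 33, a further CGATA core at base 97 on the minus strand and TATAAA at base 22 on the minus strand. The full element was found in 32 of 934 windows of this length at IDR summits away from start sites (3.43%) and in 275 of 23131 at pooled summits away from start sites (1.19%). The RpL15 run held 0 of the 9 motifs searched on both strands. GC content was 27.4% in the RpS3A run and 38.3% in the RpL15 run. Soft-masked repeats made up 37.8% of the RpS3A run and 0% of the RpL15 run, which the printed letter case does not show.

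The 301 bp around each summit were searched for sequence with at least 80% identity over at least 100 bp elsewhere in the genome. It was found at 0 of the 4 strongest start-site summits, 1 per gene, and at 6 of the 18 other IDR summits. Some of those 18 also lay within 500 bp of a start. The search was not run on the other IDR summits, so these counts have no background share and the contrast is only a description. At RpL15 these were the summits at 27263160 (67 copies), 27264656 (3 copies), 27264858 (1 copy), 27265815 (22 copies) and 27269096 (49 copies). At RpL38 it was the summit at 4516797 (10 copies), which lay 339 bp from the RpL38 start. Whether reads from other places add to the signal at these 6 summits was not tested.

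Of the 22 IDR summits, 20 had a summit within 100 bp in both replicates. The strongest 2006 peaks of both replicates held 15 of the 22, those of replicate 4 alone held 2 and those of replicate 6 alone held 5. Relative signal was higher in replicate 6 at 15 of the 20 matched summits. The clearest exceptions were at RpS3A, at 68465 and at 62684, the second with 0.883 in replicate 4 and 0.304 in replicate 6.

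**Figure D4:**
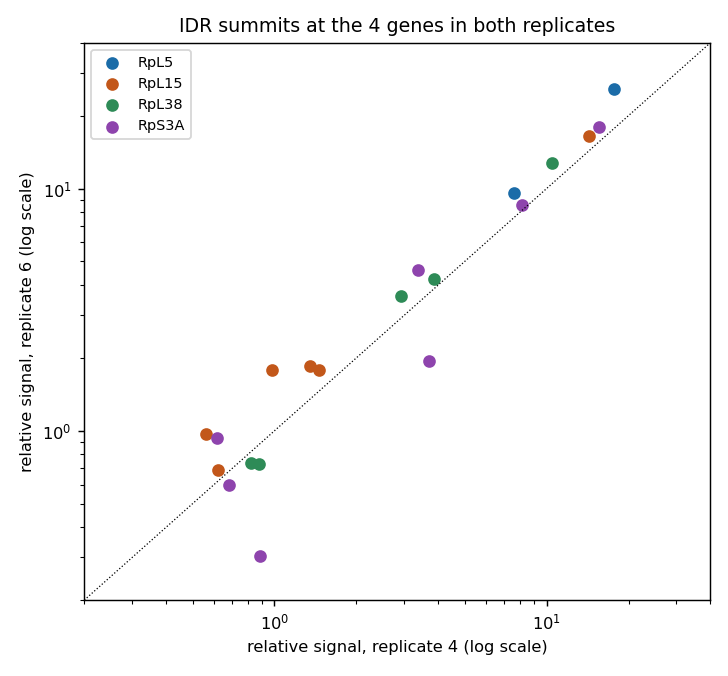
Relative signal in replicate 6 against replicate 4 (log scales) for the 20 IDR summits of the 4 genes that had a summit within 100 bp in both replicates; each point is a summit, coloured by gene, and the dotted line marks equal values. The 4 start-site summits are the highest points of their colours, all above the line, and the RpS3A summit at 62684 lies farthest below it.

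Neighbouring genes were not uniformly bound. Dbp80, a DEAD-box RNA helicase gene 10870 bp beyond RpL15, had a start-site summit of rank 6 with a relative signal of 20.3 ± 4.35, above RpL15 itself. On the other side of RpL15, at 109255 bp, vtd, which encodes the cohesin subunit Rad21, had 13.1 ± 0.964 (SD, n = 2 each). On the sides of RpL38, Gprk1, which encodes a G protein-coupled receptor kinase, had 9.40 ± 0.0890 at a distance of 44327 bp. Stlk, 30232 bp away, had 8.11 ± 0.482 (SD, n = 2 each).

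Beside RpS3A, pan, which encodes the TCF transcription factor of Wnt signalling and starts 2119 bp from the RpS3A start, had no IDR summit within 500 bp of a start. Its strongest pooled start-site summit had a signal value of 116, rank 2115. The transcription factor gene ci of Hedgehog signalling and asRNA:CR43957 shared a weak start-site summit with a signal value of 209 and a relative signal of 1.12 ± 0.103 (SD, n = 2). Beside RpL5, CG17490 lay 783 bp away and had the start-site summit of rank 96 described above (8.61 ± 1.41, SD, n = 2). Marf1, on the other side at 163482 bp, had a pooled summit of 52.2 and no IDR summit at its start. The Su(var)2-HP2 gene itself had no summit within 500 bp of a start in any of the 4 lists and 1 IDR summit in the gene or within 5 kb.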

How the data were processed

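Peak lists of 2 ChIP-seq replicates of Su(var)2-HP2-GFP were used, with a pooled list and the IDR list derived from them, per the deposited file listing. The authors called peaks against a control alignment, and the deposited signal value is a score; the sources used here do not state its scale, the aligner or the caller. Deposited lists also hold −log10 of a q-value. Per the labels, coordinates are dm6. The files give no read numbers, so depth and its precision are unknown. All 2006 IDR peaks are the top of the pooled list by signal.

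Genes came from Ensembl release 115 and sequence from RefSeq. Overlapping summits in an interval were counted singly. Pericentromeric parts were 2L beyond 22 Mb, 2R up to 5.4 Mb, 3L beyond 23 Mb, 3R up to 4.2 Mb and X beyond 22 Mb. Ribosomal protein genes were symbols beginning RpL or RpS, and sta. Named genes were the 4 genes, genes within 5 kb, the genes ranked next above and below, the 3 strongest arm ribosomal protein genes and Su(var)2-HP2; next flanking genes, RpL10 and RpL21 were added after their values were seen. The genes and lists were chosen with earlier results of these data known, so no test was run and values are descriptions. Interval reach and cover were added after the data were examined. Similar sequence was sought with blastn 2.17.0 over 301-bp windows. A simplified form of the 500 bp rule, with single, widely spaced starts, was checked on simulated peaks. That check does not cover genes with several starts or close neighbours. Python 3.11.15, numpy 2.4.6, pandas 2.3.3 and matplotlib 3.10.9 were used. Alternatives were other distances, the upper 1003 IDR peaks, other scalings, intervals counted once and each replicate alone.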

Additional observations from a re-analysis of the deposited data

How the results depend on the processing

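The count of 4 genes with a start-site summit was the same with 250 bp, with 1000 bp, in the upper 1003 IDR peaks and in each replicate alone. The 22 summits became 12 when intervals were counted once, and 16 to 24 with 2 kb or 10 kb, 15 in the upper 1003 peaks and 21 to 23 in a single replicate. Relative signal is a matter of scale: over the median of all peaks it was 125.2 at RpL5, 95.56 at RpS3A, 88.22 at RpL15 and 66.24 at RpL38, and over the median arm ribosomal protein gene 42.35, 31.73, 29.3 and 22.09 in that order. With a single replicate it was 17.63 to 25.77 at RpL5, 15.58 to 17.89 at RpS3A, 14.33 to 16.55 at RpL15 and 10.42 to 12.71 at RpL38. The log2 difference from arm ribosomal protein genes was 4.38 to 5.33 with a single replicate, 4.79 with 250 bp, 4.80 with 1000 bp and 5.45 with genes without a summit set to the lowest value. Of 24 alternative counts for single genes, 7 moved by over 1.5 times. No value was tested, and 2 replicates give only a rough SD.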
